A study of Homo sapiens with 6 samples.

Results

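The 10 genes described here encode MAP kinase phosphatases and Sprouty-family inhibitors: DUSP1, DUSP2, DUSP4, DUSP5, DUSP6, DUSP7, DUSP10, SPRY4, SPRED1 and SPRED2. They were taken by symbol from a table of 21462 genes, and all 10 were found and passed the filter on low counts. The set was put together because DUSP2 was lost while DUSP4 and SPRY4 were higher in Dsg2KO cells than in A431CT cells. These members were thus chosen by the same counts that are described here. Their differences between the groups are descriptions, and whether they pass the thresholds of the fit across all genes is not read as support. RNA was sequenced from A431 cells, a human epidermoid carcinoma line with keratinocyte features, labelled wild type (A431CT) or DSG2 KO (Dsg2KO), with 3 libraries per group. The Dsg2KO cells carry a CRISPR/Cas9 edit of DSG2, which encodes the desmosomal cadherin desmoglein-2, and the labels give DMEM with serum as the medium and name no treatment. Whether the edited line is 1 clone is not given in the sources used here, and no other edited line was sequenced, so loss of Dsg2 and other differences between the lines cannot be told apart. The study calls the libraries of a group biological replicates, while the labels do not say that they came from separate cultures, so the p-values measure the spread between these libraries.

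MAP kinases (ERK, JNK and p38) are switched on when both a threonine and a tyrosine in their activation loop are phosphorylated. The dual-specificity phosphatases (DUSPs) named here remove both phosphates, and several of their genes are transcribed in response to the kinases they switch off, which makes them negative feedback regulators. DUSP1, DUSP2, DUSP4 and DUSP5 are nuclear enzymes, DUSP6 and DUSP7 are cytoplasmic and prefer ERK, and DUSP10 prefers JNK and p38. Sprouty and SPRED proteins act further upstream and restrain signalling from receptor tyrosine kinases through RAS and RAF to ERK. A431 cells are widely used for work on this pathway because they carry very many EGF receptors.

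The libraries held between 12845719 and 16255692 counts, and a floor of 3 counts corresponded to between 0.184 and 0.236 CPM (counts per 1000000 counts after TMM scaling), which covers counting error only. DSG2 was counted at 330, 320 and 319 CPM in the A431CT libraries and at 50.9, 55.2 and 49.7 CPM in Dsg2KO cells, which left 16.1% of the A431CT level. Of 10 keratinocyte and epithelial markers, 9 passed the filter, and KRT14 was at or under 3 counts in every library. The summed level of that list was between 3227 and 3313 CPM in A431CT cells and between 3121 and 3211 CPM in Dsg2KO cells. KRT6A was the 1 gene of that list past both thresholds, at -1.03 on the log2 scale, where 3.03% of all tested genes passed as lower. Of 12 markers of fibroblasts, endothelium, leukocytes and melanocytes, 5 were at or under 3 counts in every library, and COL1A2, CD3E and MLANA were at 0. The summed level of these 12 was between 13.9 and 17.5 CPM in A431CT cells and between 21.7 and 23.2 CPM in Dsg2KO cells. Of these 12 markers, 5 passed the filter. The endothelial markers CDH5 and PECAM1 were the 2 that passed both thresholds given further on, as higher, where 2.99% of all tested genes did. The other tested markers, VWF at 0.22, LYZ at 0.66 and PMEL at -0.02 on the log2 scale, did not pass. The part of these markers in the results was not tested.

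To show the sequence around the start of transcription, promoter windows were taken from RefSeq on GRCh38.p14, each from 250 bases before to 50 bases after an annotated start. Of the 10 genes, 8 had a window in the table, all but DUSP4 and DUSP5. The windows of DUSP2, the gene without counts in Dsg2KO cells, of its relative DUSP1, which was counted at similar levels in both groups, and of SPRY4 are printed 5′ to 3′ along the gene. Capitals mark matches, on either strand, to a cAMP response element (CRE, TGACGTCA), an AP-1 site (TGANTCA), an E-box (CACGTG), an ETS site (CCGGAAG) or a TATA box (TATAAA).
DUSP2 (chr2:96145391-96145690, minus strand): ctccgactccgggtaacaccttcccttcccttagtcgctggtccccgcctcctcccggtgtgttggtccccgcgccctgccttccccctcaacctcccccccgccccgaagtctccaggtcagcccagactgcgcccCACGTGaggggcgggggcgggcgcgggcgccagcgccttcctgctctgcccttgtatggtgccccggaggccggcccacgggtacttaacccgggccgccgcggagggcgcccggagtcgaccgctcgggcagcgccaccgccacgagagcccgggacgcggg
DUSP1 (chr5:172771146-172771445, minus strand): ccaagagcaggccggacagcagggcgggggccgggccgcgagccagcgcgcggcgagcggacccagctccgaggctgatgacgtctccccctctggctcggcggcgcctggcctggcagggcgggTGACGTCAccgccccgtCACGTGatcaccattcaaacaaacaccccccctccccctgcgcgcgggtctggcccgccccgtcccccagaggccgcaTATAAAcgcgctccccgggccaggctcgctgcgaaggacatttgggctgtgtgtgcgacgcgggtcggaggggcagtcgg
SPRY4 (chr5:142324198-142324497, minus strand): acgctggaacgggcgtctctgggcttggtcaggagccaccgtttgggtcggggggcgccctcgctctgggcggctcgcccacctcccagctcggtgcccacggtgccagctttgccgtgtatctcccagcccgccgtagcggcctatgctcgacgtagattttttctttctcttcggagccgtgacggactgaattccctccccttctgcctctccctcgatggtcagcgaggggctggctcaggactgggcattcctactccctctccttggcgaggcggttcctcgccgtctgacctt

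The DUSP2 window had a single match, an E-box whose first base lay at -113 from the start. The DUSP1 window held an E-box at a like place, at -108, and beside it a full CRE at -125 and a TATA box at -30. The SPRY4 window held no match to these motifs. It belongs to a start inside the annotated gene, not at its 5′ end. Among all 35116 windows of this length, 7.26% held the E-box, 1.85% the CRE and 11.5% the TATA box. In SPRED2, 1 window (chr2:65366729-65367028) held a pair of AP-1 matches, at -6 and 35, and a TATA box at -31. That window belongs to a start inside the annotated gene. The window at the 5′ end of SPRED2 (chr2:65432550-65432849) held no match to these motifs. AP-1 letters were found in 7.71% of all windows. The ETS letters were in 10.3% of all windows and in no window of these genes, which says only that these letters are not in these windows. The windows of DUSP1, DUSP2 and SPRY4 contained 73.3%, 75% and 65% G or C. All motif matches are descriptions of sequence, and binding was not measured.

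DUSP2, on chromosome 2 from 96143169 to 96145440 (GRCh38, GENCODE, like all gene positions given here), encodes a nuclear phosphatase first known from activated immune cells. It had 43, 28 and 37 counts in the A431CT libraries and 0, 0 and 0 counts in the Dsg2KO libraries. These were 3.38, 2.06 and 2.87 CPM in A431CT cells, a mean of 2.77 ± 0.664 (SD, n = 3). Every A431CT library was thus well above the floor and every Dsg2KO library was empty, out of 47086352 counts in the 3 Dsg2KO libraries together. Against a floor of 3 counts per library, which is at most 0.201 CPM in Dsg2KO cells, DUSP2 was at least 13.8-fold lower. It remained a weakly expressed gene even in A431CT cells, and no annotated gene overlaps it. In RNA from whole cultures, fewer cells that express a gene and less RNA per cell cannot be told apart.

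DUSP4, on chromosome 8 from 29333064 to 29350684, encodes a nuclear phosphatase of ERK and JNK that is itself induced by ERK. Its level was 12.7, 13.1 and 16.0 CPM in A431CT cells and 43.1, 38.4 and 40.2 CPM in Dsg2KO cells. The lowest Dsg2KO library was thus far above the highest A431CT library, and the difference was many times the SD within either group. The means were 13.9 ± 1.78 and 40.6 ± 2.42 CPM (SD, n = 3), a log2 fold change of 1.54 (standard error 0.09), or 2.91-fold. With each library left out in turn, the log2 fold change stayed between 1.48 and 1.65.

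SPRY4, on chromosome 5 from 142310427 to 142326455, encodes an inhibitor of receptor tyrosine kinase signalling and is a known target of ERK. Its level was 17.3, 16.0 and 14.9 CPM in A431CT cells and 25.1, 27.2 and 24.7 CPM in Dsg2KO cells. The groups did not overlap, and the gap between them was wider than the spread within either. The means were 16.1 ± 1.21 and 25.6 ± 1.33 CPM (SD, n = 3), a log2 fold change of 0.68 (standard error 0.09), or 1.60-fold, and between 0.62 and 0.73 with each library left out. On the opposite strand, 3 annotated genes overlap SPRY4, among them the antisense gene SPRY4-AS1, and none of them is a row of the table. How reads were assigned by strand is not given in the sources used here.

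DUSP10, on chromosome 1 from 221701424 to 221742089, encodes the phosphatase that prefers JNK and p38. It stood at 68.7, 61.6 and 63.3 CPM in the A431CT libraries and at 54.4, 55.9 and 55.3 CPM in Dsg2KO cells. All Dsg2KO libraries were lower than all A431CT libraries, and the log2 fold change was -0.22 (standard error 0.06). The step was small, and Dsg2KO cells kept 85.6% of the A431CT level.

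The cytoplasmic enzymes of the set, DUSP6 and DUSP7, had small differences. DUSP6, on chromosome 12 from 89347235 to 89352501 and a feedback gene widely read as a gauge of ERK activity, was at 53.4, 58.3 and 49.7 CPM in the A431CT libraries and at 52.7, 55.4 and 55.1 CPM in Dsg2KO cells. The groups overlapped, and the log2 fold change was 0.02 (standard error 0.06), between -0.04 and 0.08 with each library left out, so that its sign turned. DUSP7, on chromosome 3 from 52048919 to 52056571, was at 78.7, 75.4 and 78.1 CPM in the A431CT libraries and at 82.5, 82.3 and 80.3 CPM in Dsg2KO cells. These groups did not overlap, but the log2 fold change was only 0.08 (standard error 0.05). A long noncoding RNA on the opposite strand overlaps DUSP6 in the annotation and another overlaps DUSP1, and neither is a row of the table.

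DUSP5, on chromosome 10 from 110497907 to 110511533, encodes a nuclear phosphatase of ERK. It was at 58.6, 53.6 and 52.1 CPM in the A431CT libraries and at 52.7, 49.1 and 51.1 CPM in Dsg2KO cells, with overlapping groups and -0.10 as the log2 fold change (standard error 0.06). DUSP1, on chromosome 5 from 172768096 to 172771195, is the archetype of the family and an immediate early gene of growth factors and stress. It was at 6.76, 4.94 and 7.91 CPM in the A431CT libraries and at 6.58, 8.69 and 6.92 CPM in Dsg2KO cells, and the groups overlapped. The log2 difference of 0.18 was no larger than its standard error of 0.19, and it ranged from 0.01 to 0.34 when single libraries were left out. DUSP1 varied more between replicates than most of the set. Its coefficient of variation was 22.9% in A431CT cells and 15.3% in Dsg2KO cells, against 2.26% to 12.8% and 1.36% to 7.02% for the 8 genes other than DUSP1 and DUSP2.

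SPRED1, on chromosome 15 from 38252836 to 38357249, encodes the adaptor that brings the RAS inhibitor neurofibromin to the membrane. It was at 49.6, 48.9 and 53.4 CPM in the A431CT libraries and at 52.2, 52.9 and 59.2 CPM in Dsg2KO cells, a log2 fold change of 0.11 (standard error 0.06). Its relative SPRED2, on chromosome 2 from 65310851 to 65432637, was at 81.7, 81.1 and 87.0 CPM in the A431CT libraries and at 92.0, 85.2 and 90.0 CPM in Dsg2KO cells, a log2 fold change of 0.10 (standard error 0.05). For both genes the groups overlapped through the highest A431CT library. In the annotation, another gene on the same strand overlaps SPRED2, and that gene is not a row of the table.

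**Figure D1:**
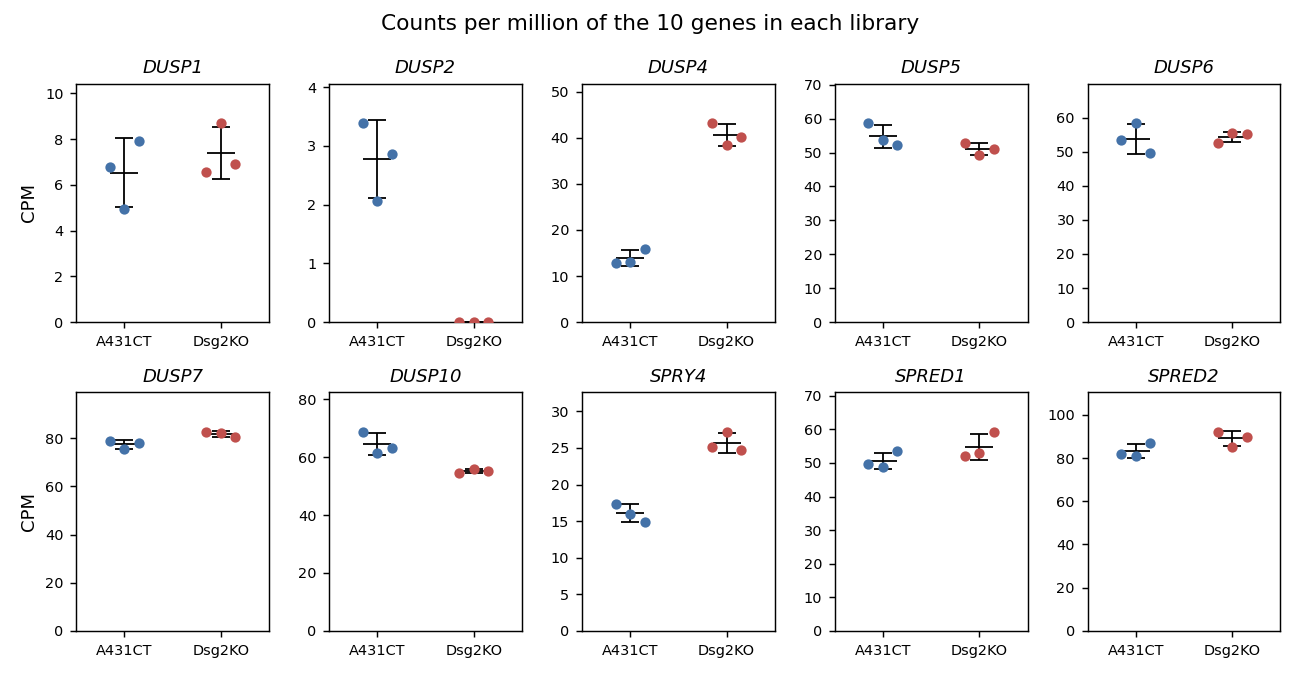
CPM (y axis, from 0, with its own scale in each panel) of the 10 genes in A431CT (blue) and Dsg2KO (red) libraries, with 1 point per library and the mean and SD of 3 libraries in black. The 3 Dsg2KO points of DUSP2 lie at 0, those of DUSP4 and SPRY4 lie above all A431CT points, and those of DUSP6 lie within the A431CT range.

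In the fit across all genes, 775 of 12857 tested genes passed both thresholds, 0.05 for the adjusted p-value of edgeR's quasi-likelihood test and 0.5 for the size of the log2 change, which is 6.03%, with 2.99% passing as higher and 3.03% as lower. Of the 10 genes, 3 did (DUSP2 lower, DUSP4 and SPRY4 higher), and these are the genes for which the set was chosen, so nothing is read from that count. DUSP10 was the 1 further gene with an adjusted p-value below the threshold but a smaller change, where 29.6% of tested genes had such a p-value. The libraries of the groups did not overlap for 5 of the 10 genes, DUSP2, DUSP4, DUSP7, DUSP10 and SPRY4, against 42.6% of tested genes. Of these, DUSP4, DUSP7 and SPRY4 were higher (21.2% of tested genes) and DUSP2 and DUSP10 lower (21.4%). The median log2 fold change was 0.09 over the 10 genes and -0.0048 over all tested genes.

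To compare levels between genes, counts were divided by the length of the annotated exons and scaled to a sum of 1000000 per library (transcript units, TPM). In A431CT cells the order of the levels ran from DUSP10 (103 ± 5.62 TPM, SD, n = 3) and DUSP5 (97.4 ± 5.66 TPM), whose libraries overlapped, down to DUSP2 (6.48 ± 1.54 TPM). SPRED2 (68.2 ± 2.92 TPM), DUSP6 (62.9 ± 4.92 TPM) and DUSP7 (61.6 ± 1.40 TPM) formed a middle group in which neighbours in the order overlapped. SPRED1 (29.5 ± 1.53 TPM) stood alone below them. At the lower end, DUSP1 (14.6 ± 3.39 TPM) overlapped SPRY4 (11.0 ± 0.786 TPM), and DUSP4 (8.63 ± 1.14 TPM) overlapped DUSP2. The 3 genes for which the set was chosen held the last 3 places, with SPRY4 not apart from DUSP1. With the longest transcript as the gene length, 6 of the 10 genes kept their place, and DUSP7 moved from place 5 to place 2.

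In Dsg2KO cells DUSP4 was at 26.0 ± 1.64 TPM (SD, n = 3) and took place 7 in the order, against place 9 in A431CT cells, above SPRY4 at 18.2 ± 0.788 TPM and DUSP1 at 17.1 ± 2.49 TPM. DUSP5 (93.7 ± 3.79 TPM) and DUSP10 (91.0 ± 1.27 TPM) led and overlapped. With the longest transcript as the gene length, DUSP7 came first in Dsg2KO cells at 80.3 TPM, above DUSP10 at 70.5 TPM and DUSP5 at 68.0 TPM.

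The summed level of the 7 phosphatases was 368, 345 and 350 TPM in A431CT cells and 360, 358 and 363 TPM in Dsg2KO cells. The Dsg2KO sums lay within the A431CT range, while the make-up of the sum differed. With the longest transcript as the gene length, the sums were between 287 and 305 TPM in A431CT cells and between 302 and 306 TPM in Dsg2KO cells, and 2 of the Dsg2KO sums were above every A431CT sum. The shares that follow are those with the length of the annotated exons. DUSP4 made up 2.44 ± 0.365% of the sum in A431CT cells and 7.20 ± 0.436% in Dsg2KO cells (SD, n = 3). DUSP10 made up 29.0 ± 0.607% and 25.2 ± 0.329%, and DUSP2 1.82 ± 0.382% and 0%. The shares of DUSP4 and DUSP10 thus differed in opposite directions. DUSP4 was chosen for its difference, and a larger share of 1 gene lowers the shares of the others, so nothing is read from this. The share of DUSP5 went from 27.5% to 26.0%, that of DUSP6 from 17.8% to 18.2% and that of DUSP7 from 17.4% to 18.6% between A431CT and Dsg2KO cells.

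For the 3 Sprouty-family genes the sum was 107, 106 and 113 TPM in A431CT cells and 127, 122 and 131 TPM in Dsg2KO cells. These sums did not overlap between the groups, but they include SPRY4, which was chosen for its difference. Nothing is therefore read from them. SPRY4 supplied 10.2 ± 0.995% of the sum in A431CT cells and 14.4 ± 1.10% in Dsg2KO cells (SD, n = 3). SPRED2 remained the main component, with 62.7 ± 0.577% and 59.6 ± 1.48%.

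**Figure D2:**
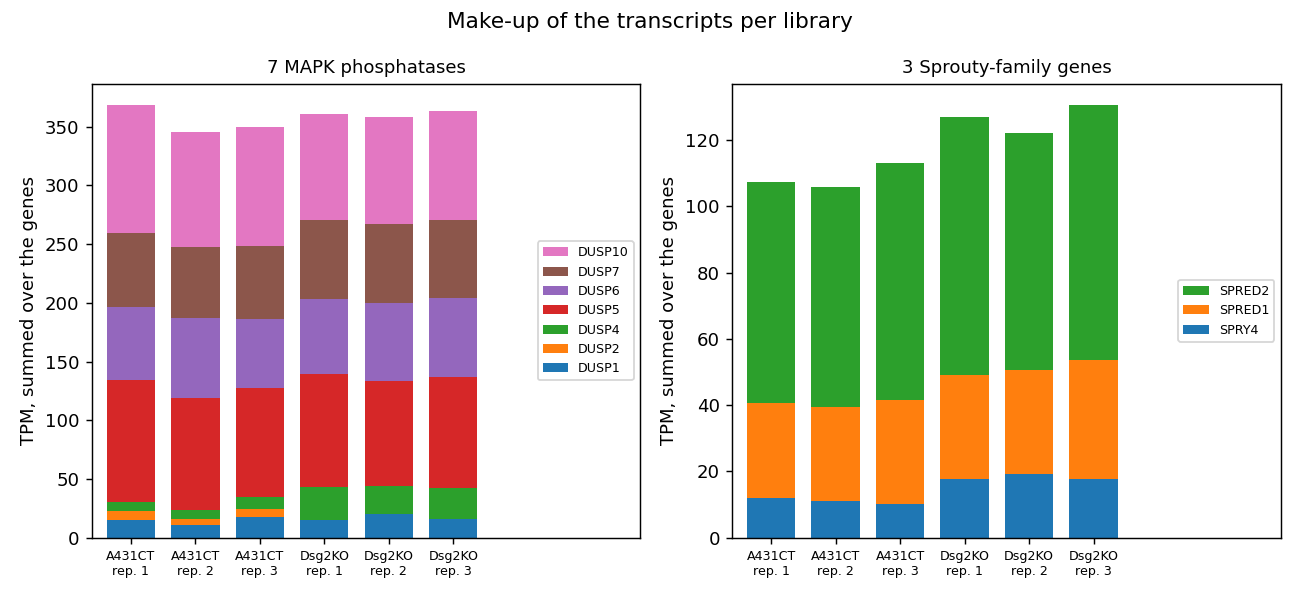
Stacked bars of TPM (y axis, from 0) in each of the 6 libraries for the 7 phosphatases (left) and the 3 Sprouty-family genes (right), with 1 colour per gene. The phosphatase bars reach between 345 and 368 TPM in both groups while the DUSP4 segment is larger in Dsg2KO cells, and the Sprouty-family bars are taller in every Dsg2KO library.

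A chosen list of other phosphatases that can act on MAP kinases, or belong to the same family, held 16 genes, of which 10 were tested. The list is not complete. DUSP9, an X-linked cytoplasmic phosphatase that prefers ERK, was the 1 gene past both thresholds, where 2.99% of tested genes passed as higher. It was at 17.8, 15.3 and 17.3 CPM in the A431CT libraries and at 26.8, 25.1 and 24.9 CPM in Dsg2KO cells. DUSP9 was higher in 3 of 3 libraries and rose by 0.61 ± 0.09 on the log2 scale (SE; edgeR adjusted p = 8.33e-05), and its change stayed between 0.55 and 0.66 with each library left out. The atypical phosphatase DUSP23 passed the p-value threshold alone, at 0.40 on the log2 scale. The median of the list was 0.05, and DUSP18, DUSP26 and PTPN7 had no count in any library.

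Among 14 other inhibitors of receptor or RAS signalling, 13 were tested and 2 passed both thresholds as higher, SPRY1 and IL17RD, where 2.99% of all tested genes did. SPRY1, a relative of SPRY4, was at 7.08, 9.22 and 8.68 CPM in the A431CT libraries and at 13.4, 14.0 and 11.4 CPM in Dsg2KO cells. The difference was 0.63 ± 0.14 on the log2 scale (SE; edgeR adjusted p = 0.00271), and it was higher in 3 of 3 libraries. SPRY2, which many epithelial cells express, was at or under 0.310 CPM in every library and could not be tested.

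IL17RD, also called SEF, encodes a membrane protein that restrains ERK signalling downstream of growth factor receptors. It was at 14.0, 12.8 and 12.1 CPM in the A431CT libraries and at 18.2, 19.1 and 20.7 CPM in Dsg2KO cells. The difference was 0.58 ± 0.10 on the log2 scale (SE; edgeR adjusted p = 0.000486), higher in 3 of 3 libraries. By adjusted p-value alone, 5 genes of this list were higher (also CBL, NF1 and DAB2IP) and 2 lower, where 14.3% and 15.3% of tested genes were. The lower 2 were ERRFI1, the EGF receptor inhibitor MIG6, at -0.38 on the log2 scale, and PEBP1, the RAF kinase inhibitor protein, at -0.25. The median of the list was 0.18.

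Of 23 adaptors, RAS proteins and kinases of the ERK cascade, all were tested, 1 passed both thresholds as lower (3.03% of all tested genes did), and the median log2 difference was -0.06. By adjusted p-value alone, 4 genes were higher and 5 lower, against 14.3% and 15.3% of all tested genes. The gene past both thresholds was MKNK1, a kinase downstream of ERK that phosphorylates the translation factor eIF4E. MKNK1 was at 54.2, 59.7 and 54.8 CPM in the A431CT libraries and at 39.1, 40.9 and 38.7 CPM in Dsg2KO cells, a difference of -0.51 ± 0.06 on the log2 scale (SE; edgeR adjusted p = 1.92e-05), lower in 3 of 3 libraries. It lay close to the minimum of 0.5 and was at -0.46 without A431CT replicate 2, at -0.498 without Dsg2KO replicate 1 and at -0.49 without Dsg2KO replicate 3.

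Of 20 genes of the JNK, p38 and ERK5 cascades, 19 were tested, with a median of -0.04. MAPK11, which encodes p38β, was the 1 gene past both thresholds and was higher, where 2.99% of all tested genes passed as higher. By adjusted p-value alone, 4 genes of this list were higher and 2 lower, against 14.3% and 15.3% of all tested genes. MAPK11 had few reads, namely 11, 14 and 5 in the A431CT libraries against 33, 30 and 26 in the Dsg2KO libraries. The difference was 1.29 ± 0.38 on the log2 scale (SE; edgeR adjusted p = 0.0176), in 3 of 3 libraries. Without A431CT replicate 3 it was at 0.98 (adjusted p = 0.0776, edgeR) and without Dsg2KO replicate 1 at 1.16 (adjusted p = 0.0791, edgeR), and over the alternatives the adjusted p-value ranged from 0.00226 to 0.0791. The more abundant p38α gene MAPK14 had a log2 fold change of 0.05.

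Of 23 genes known to be induced by ERK, 19 were tested, and their median log2 fold change was 0.28, against -0.0048 over all tested genes. The sole gene past both thresholds was lower, as were 3.03% of all tested genes. EPHA2, an ephrin receptor, fell from 135, 130 and 147 CPM in A431CT cells to 96.6, 92.0 and 95.0 CPM in Dsg2KO cells. The difference was -0.54 ± 0.05 on the log2 scale (SE; edgeR adjusted p = 1.90e-06), lower in 3 of 3 libraries, and -0.49 without A431CT replicate 3. By adjusted p-value alone 9 genes of the list were higher (14.3% of all tested genes) and 2 lower (15.3%), EPHA2 and PHLDA1, the latter at -0.12 on the log2 scale. Higher by that threshold were, among others, the transcription factor ETV5 at 0.45, cyclin D1 (CCND1) at 0.40 and FOSL1 at 0.36 on the log2 scale, all short of the minimum and chosen for mention after their values were seen. EGR1, an immediate early gene, was at -0.13 (standard error 0.11), and ETV4 had no count in any library.

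**Figure D3:**
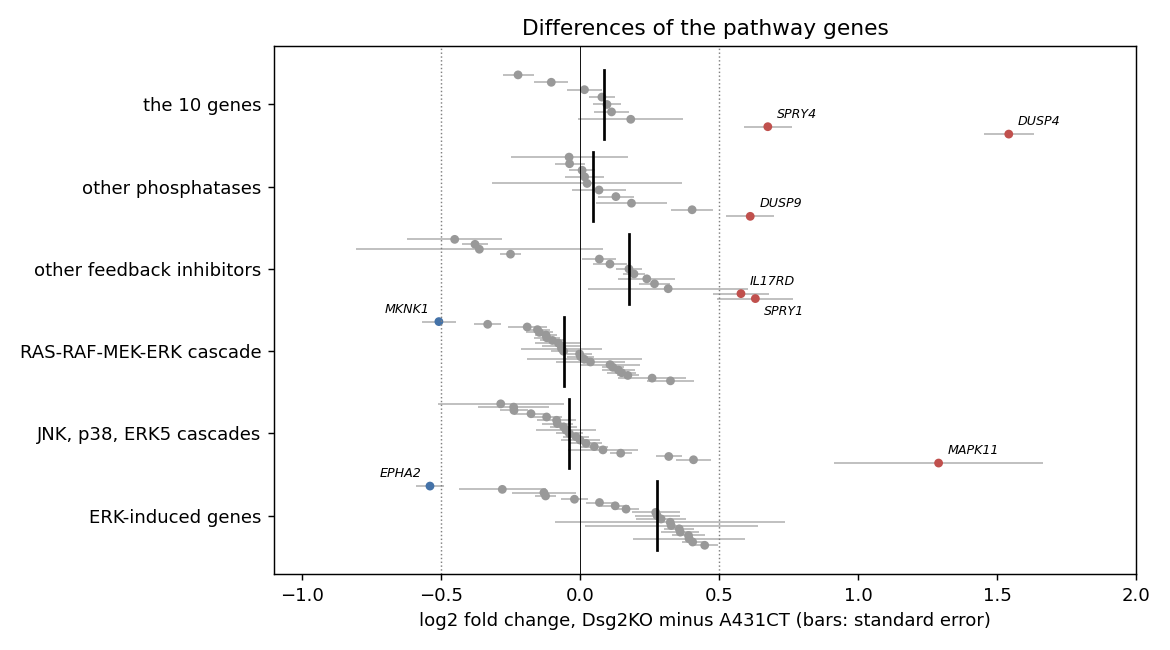
Log2 fold change of Dsg2KO against A431CT cells (x axis) for each tested gene of 6 lists, with bars for the standard error, black lines for list medians and dotted lines at the minimum of 0.5. Genes past both thresholds are red where higher and blue where lower, DUSP2 is not drawn because it had no count in Dsg2KO cells, and the ERK-induced genes have the highest median, 0.28, with no higher gene past the minimum.

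To see whether a gene differed from its surroundings on the chromosome, it was set beside the 10 tested genes on either side. For 9 of the 10 genes the median log2 fold change of these 20 neighbours was less than 0.15 in size. The neighbours of DUSP4 had a median of 0.05, those of SPRY4 0.04 and those of DUSP2 0.06, beside genes that were chosen for their own difference. Among the neighbours of SPRY4, PCDH1 was at 0.95, above SPRY4 itself, and ARHGAP26 at 0.42. DUSP6 was the exception. Its neighbours on chromosome 12 had a median of -0.21, and 18 of 20 were lower in Dsg2KO cells, while DUSP6 itself was at 0.02. Relative to its neighbours DUSP6 was therefore at 0.22. Taken the same way, the next value below it was that of DUSP1 (0.18) and the next above it that of SPRY4 (0.63). DUSP10 lay among neighbours with a median of 0.14 and was at -0.36 relative to them. Among the list genes, MKNK1 and EPHA2, both on chromosome 1, had neighbours at -0.22 and -0.19. Taken relative to these, a step added for list genes after the data were seen, they were at -0.29 and -0.35, smaller in size than the minimum. DUSP9, SPRY1, IL17RD and MAPK11 were at 0.57, 0.53, 0.498 and 1.36 relative to theirs, IL17RD thus just under the minimum. The part of the surroundings in these values was not tested.

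**Figure D4:**
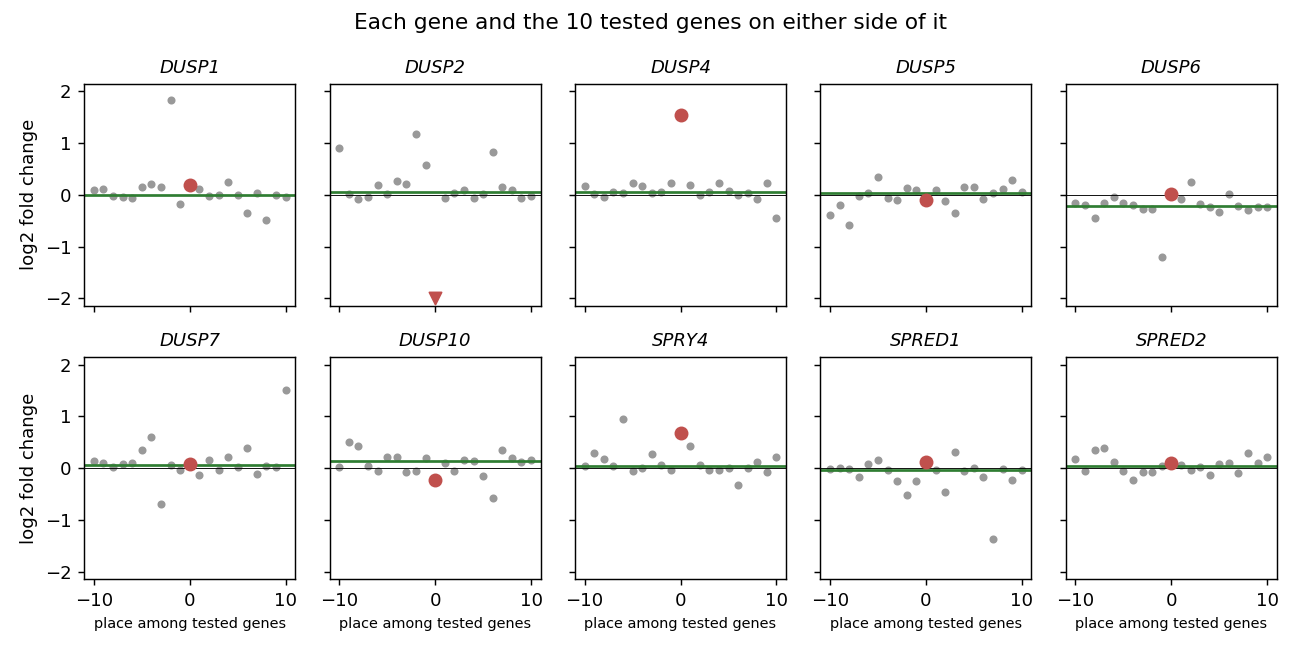
Log2 fold change (y axis) of each of the 10 genes (red) and of the 10 tested genes on either side of it (grey, in chromosome order along the x axis), with the median of the neighbours as a green line. Values are limited to 2 in size, the triangle marks DUSP2, which lies below the axis, and the green line lies at -0.21 for DUSP6 and between -0.04 and 0.14 for the others.

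Genes with the most similar course over the 6 libraries were found by the root mean square difference of centred log2 CPM. For DUSP2 they were GLB1L2 (difference 0.29, log2 fold change -7.85), ZNF726 (0.32, -6.34) and HSPB1 (0.35, -4.16). GLB1L2 had 25, 27 and 26 counts in the A431CT libraries and none in the others. In the Dsg2KO libraries ZNF726 had 0, 1 and 1 counts and HSPB1 had 6, 6 and 12, so HSPB1 was lower but not lost. For DUSP4 the most similar genes were KCNG1 (0.11, log2 fold change 1.64), NKX1-2 (0.11, 1.54) and PTGER4 (0.13, 1.63). For SPRY4 they were NRGN (0.04, log2 fold change 0.66), TRPM2 (0.06, 0.66) and PGM2L1 (0.07, 0.77). These are likenesses over 6 libraries that share 2 groups, and no test was made of them.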

How the data were processed

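RNA-seq counts from 3 A431CT and 3 Dsg2KO libraries were used. Paired-end reads were trimmed, aligned to GRCh38/hg38 and counted in CLC Genomics Workbench (version 23) by the authors, who deposited raw counts per gene symbol without normalization. Annotation and strand setting are not given in the sources used here. Library totals were between 12845719 and 16255692 counts.

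Counts were fitted with edgeR 4.0.16 in R 4.3.3 (TMM factors, filterByExpr with a minimum count of 10 and a minimum total of 15, quasi-likelihood F test, Benjamini-Hochberg adjustment). Genes were called at 0.05 for the adjusted p-value together with 0.5 for the size of the log2 change. A standard error is the fold change divided by the root of F. The fit was checked on simulated data. TPM used exon lengths from GENCODE version 44, which placed 19730 of the 21462 symbols. Promoters came from RefSeq.

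The members and lists were chosen with earlier results of these data known. Named genes are the members, DSG2, up to 4 genes past both thresholds from each of the 5 pathway lists, and 3 similar profiles each for DUSP2, DUSP4 and SPRY4; others were named after their values were seen. Alternatives were other filters, RLE factors, total counts, DESeq2 1.42.0, a likelihood ratio test, a replicate block, other fold change minima, wider neighbourhoods, another gene length and each library left out. Python 3.11.15 was used for tables and figures.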

Additional observations from a re-analysis of the deposited data

How the results depend on the processing

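Of the 10 genes described, 3 passed both thresholds in the main fit, in the fit without a low-count filter, with RLE factors, total counts, DESeq2, the likelihood ratio test and the replicate block, and with each library left out. With at least 10 counts in every library the number was 2, since DUSP2 is then not tested. Without a fold change minimum it was 4, and with a minimum of 1 it was 2. The 3 genes are those for which the set was chosen by these same counts, so nothing is read from these numbers. In the main fit, 6.03% of all tested genes passed both thresholds. The replicate block gave 769 genes in all against 775, and the numbers of the libraries did not pair them, with residual correlations from -0.0027 to 0.0539. All genes past both thresholds numbered from 659 with DESeq2 to 916 without a filter, and from 686 to 795 with a library left out. Without a minimum, 3802 genes passed, and of the lists 35 in all, 2 of the other phosphatases, 7 of the other inhibitors, 9 of the ERK cascade, 6 of the JNK, p38 and ERK5 cascades and 11 of the ERK-induced genes. With a minimum of 1 these were 250 genes, 1 list gene in all (MAPK11), and 0 in each of the other 4 lists. The ERK cascade count was 0 without a low-count filter and with total counts only, and the stress cascade count 0 with at least 10 counts in every library, where MAPK11 is not tested. With a library left out, the counts of the ERK cascade, the stress cascades and the ERK-induced genes ranged from 0 to 1, and that over all 5 lists from 4 to 6. DUSP9, SPRY1 and IL17RD passed in all 13 alternative fits, with IL17RD between 0.53 and 0.64. With the longest transcript as the gene length, 6 of 10 genes kept their place in the order of TPM. At these depths, genes of a few counts such as MAPK11 carry standard errors several times those of the abundant genes, and the DUSP1 difference of 0.18 was within its standard error of 0.19.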
